A study of Homo sapiens with 4 samples.

Results

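The genes described here are 10 members of the S100 and annexin families, 6 S100 genes (S100A4, S100A6, S100A10, S100A11, S100A14 and S100P) and 4 annexin genes (ANXA1, ANXA2, ANXA3 and ANXA5). They were taken by symbol from a table of 61541 genes, and the comparison is UBXN1-knockdown cells (shUBXN1) against control cells (shCon). The cells of both groups were MHCC97H, an established human hepatocellular carcinoma (HCC) line, carrying either a UBXN1 shRNA or a control shRNA, with 2 libraries per group. The labels call the control shCon and the methods call it shRFP. Which UBXN1 shRNA the sequenced cells carried, and whether the 2 libraries of a group came from separate cultures, is not given in the sources used here. The p-values set each group difference against the spread between these libraries, which the test partly shares across genes. That spread may therefore be technical, and all values belong to 1 cell line.

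S100 proteins are small EF-hand proteins that bind calcium, mostly as dimers, and then expose a surface that grips a partner protein. Annexins bind acidic phospholipids of membranes in the presence of calcium. The families meet directly: S100A10 joins ANXA2 in a tetramer at the inner face of the plasma membrane, and S100A11 binds ANXA1. Several of these genes are known for high expression in carcinoma cells, and S100A4 and S100P are known for their association with cell migration.

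The libraries held 23373700 to 27380508 counts. UBXN1 itself fell from 1788 and 1817 counts in the controls to 416 and 433 with the knockdown, a log2 fold change of -2.03 (standard error 0.0963). Mitochondrial genes took 5.28% and 5.59% of the counts in the controls, against 7.43% and 8.27% with the knockdown. Among markers of liver cells, KRT8, KRT18 and HNF4A were expressed in every library, whereas APOA2 had at most 0.0427 CPM (counts scaled to library size, here with TMM factors), and 6 of the 10 hepatocyte markers tested were lower in shUBXN1 and 2 higher, their sum being 4449 to 4610 CPM in shCon and 3464 to 4054 in shUBXN1. KRT8 and KRT18 made up most of that sum, while ALB and TF fell to 25.6% of the control level, TTR to 11.9% and FGB to 6.16%. The 2 higher were KRT18 (124% of the control level) and SERPINA1 (132%), and AFP and APOA1 were not called. The cholangiocyte markers summed to 374 to 375 CPM in shCon and 247 to 268 in shUBXN1, with 1 of 4 higher (KRT7) and 1 lower (KRT19). Fibroblast markers summed to 33.0 to 33.7 CPM in shCon and 16.8 to 19.5 in shUBXN1 (1 of 3 tested higher, 2 lower), endothelial markers to 48.4 to 49.9 and 92.4 to 99.4 (2 of 3 higher), and leukocyte markers to 91.8 to 100 and 93.3 to 95.3 (1 of 4 higher, 2 lower). LUM, PECAM1, KDR and CD68 held most of these sums, whereas COL1A1, COL3A1, DCN and PDGFRB were at 2.52 CPM or less. CDH5 was at 0.255 CPM or less and PTPRC at 0.171 or less in each library, and CD3E was at 0. CD79A, the leukocyte marker called higher, was at 8.09 and 10.7 CPM in shCon and 21.5 and 21.9 in shUBXN1. The 2 called lower were LYZ and CD68. The part that these marker shifts play in the results below was not tested.

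Of the 10 members, 9 passed the filter on low counts and were tested across the whole table. S100A11, ANXA1 and ANXA3 rose and S100A4 and S100P fell at an adjusted p under 0.05, while S100A6, S100A10, ANXA2 and ANXA5 did not pass. Over all 16863 genes tested, 28.0% were called higher and 28.2% lower in the same test, 56.2% in either direction. The 5 members called of 9 tested (55.6%) are thus close to the share of all genes. The median log2 fold change was -0.01 over the 9 members and 0.02 over all genes, and the median size was 0.29 against 0.44. With the thresholds that the study applied, a fold change of 2 with an unadjusted p under 0.05, only ANXA3 was called higher and only S100P lower, where all genes gave 11.8% and 6.09%. The groups did not overlap for 8 of the 9 tested members, against 78.0% of all genes. In RNA from whole cultures, fewer cells that express a gene and less RNA per cell cannot be told apart.

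**Figure D1:**
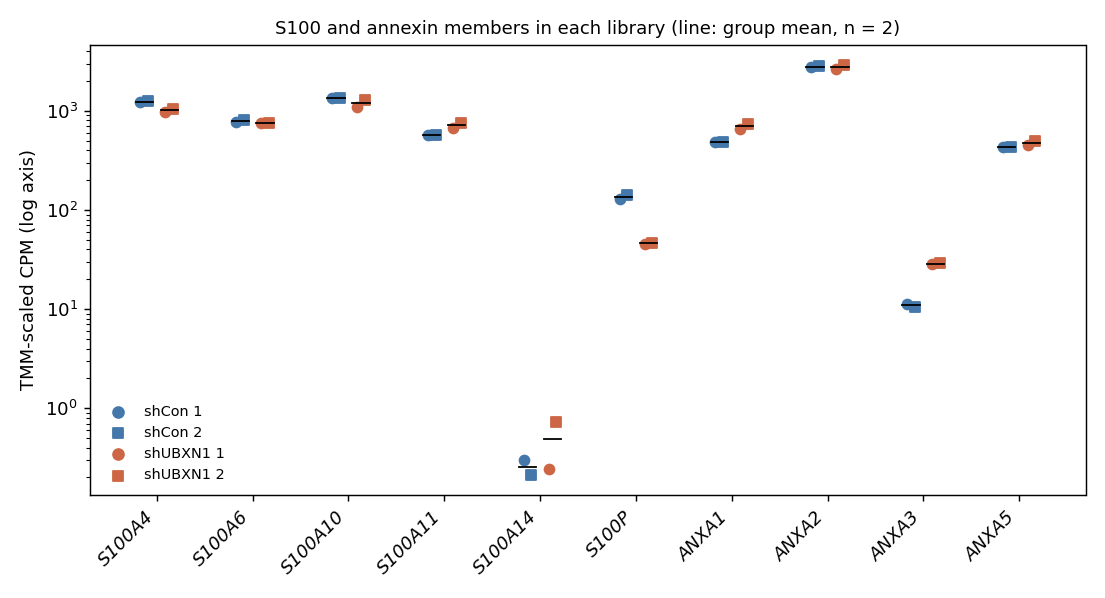
TMM-scaled CPM (log axis) of the 10 members in each of the 4 libraries, with circles for replicate 1, squares for replicate 2 and a line at each group mean. The libraries of a group differ most for S100A14 and, among the knockdown libraries of tested members, for S100A10 (1100 and 1296 CPM), the groups stand far apart for S100P and ANXA3, and S100A14 lies below 1 CPM.

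The expression order of the members was set on the per-length scale, TPM, in which counts are divided by gene length and scaled to the same total in each library. In shCon, S100A4 was at 4690 ± 0.743 TPM (SD, n = 2) and S100A10 at 4416 ± 100, followed by ANXA2 at 2859 ± 27.4, S100A6 at 2349 ± 2.36 and S100A11 at 2036 ± 32.6. S100P at 577 ± 32.6, ANXA5 at 527 ± 7.14 and ANXA1 at 440 ± 10.95 TPM came next, and ANXA3 at 15.3 ± 1.05 and S100A14 at 0.503 stood far lower. By mean TPM over the 4 libraries, S100A4, S100A10, ANXA2, S100A11 and S100A6 held ranks 18, 20, 33, 41 and 42 of all genes in the table. In shUBXN1 the first 2 could not be ordered, since S100A10 at 4058 ± 255 TPM and S100A4 at 3993 ± 45.4 (SD, n = 2) differed by less than their spread. ANXA1 at 659 ± 14.2 and ANXA5 at 605 ± 14.6 TPM then stood above S100P at 205 ± 6.77. The deposited lengths are 471 to 1025 bases for the S100 members and 1432 to 2209 for the annexin members. No correction for fragment size was made, and its effect on the levels of the short S100 genes against the annexins was not tested.

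The promoter sequence of the 5 members called is shown because these genes moved in both directions. Each line gives the 100 bases before the RefSeq start site on GRCh38.p14, 5′ to 3′ in the direction of the gene. The windows of S100A4 and S100A11 lie within the GENCODE span of their gene, outside its exons, and the last bases of the ANXA3 window lie within its first exon. The windows are chr4:6693778-6693877 (+) for S100P, chr1:153545807-153545906 (-) for S100A4, chr4:78551670-78551769 (+) for ANXA3, chr9:73151765-73151864 (+) for ANXA1 and chr1:152037005-152037104 (-) for S100A11. Capitals mark matches on either strand to the TATA box (TATAAA), to the CCAAT box (letters as in its name) or to the GC box (GGGCGG).
S100P: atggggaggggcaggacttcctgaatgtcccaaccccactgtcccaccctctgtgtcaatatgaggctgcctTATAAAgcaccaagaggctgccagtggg
S100A4: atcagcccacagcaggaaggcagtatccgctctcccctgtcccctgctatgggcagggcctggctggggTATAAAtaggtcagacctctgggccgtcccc
ANXA3: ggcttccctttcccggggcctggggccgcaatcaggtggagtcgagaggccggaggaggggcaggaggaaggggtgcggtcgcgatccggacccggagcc
ANXA1: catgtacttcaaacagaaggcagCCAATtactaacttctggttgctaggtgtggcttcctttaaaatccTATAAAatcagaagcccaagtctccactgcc
S100A11: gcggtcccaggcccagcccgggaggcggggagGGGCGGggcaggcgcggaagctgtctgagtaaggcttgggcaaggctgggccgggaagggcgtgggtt
TATAAA was found in both members that fell, where it begins 28 bases before the start of S100P and 31 before that of S100A4, and also 31 bases before the start of ANXA1, which rose. The windows of ANXA3 and S100A11 held none. Over the 10 members 4 windows held TATAAA (ANXA2 being the other), 1 held CCAAT (ANXA1) and 3 held GGGCGG (S100A6, S100A11 and ANXA2). Of 35116 RefSeq promoter windows of the same length, 4.99% held TATAAA, 18.1% CCAAT and 31.3% GGGCGG. A match describes letters in the window and not a bound site.

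S100P, a small S100 protein that binds ezrin and the receptor RAGE, showed the largest fall among the members tested. It lies on chromosome 4 of GRCh38 from 6693878 to 6697170. Its level was 128 and 143 TMM-scaled CPM in shCon and 45.6 and 46.8 in shUBXN1. Both knockdown libraries lay far below both controls, at 34.1% of the control level. On the log2 scale this was a change of -1.55 (standard error 0.0803, adjusted p = 2.19e-09, edgeR). It kept its call in all 14 alternatives, between -1.63 and -1.47.

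S100A4, also called metastasin, binds the heavy chain of non-muscle myosin. It lies on chromosome 1 from 153543613 to 153550136. S100A4 was at 1223 and 1259.5 CPM in shCon and 984.5 and 1044 CPM in shUBXN1, so the groups did not overlap, but the fall was 1.22-fold. In log2 units the change was -0.29 (standard error 0.0829, adjusted p = 0.00814, edgeR). The call was lost without the first shCon library (-0.31, adjusted p = 0.0571) and without the second (-0.28, adjusted p = 0.228), and over all alternatives the adjusted p ran from 7.65e-06 to 0.228.

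S100A11, known as calgizzarin, and its binding partner ANXA1, which carries anti-inflammatory signals through formyl peptide receptors, both rose. S100A11 (chromosome 1, 152032506 to 152047907) was at 569 and 573 CPM in shCon and at 675 and 762 CPM in shUBXN1. Its change was 0.33 on the log2 scale (standard error 0.0836, adjusted p = 0.00373, edgeR). Both knockdown libraries were above both controls, but they differed from each other more than the controls did. Without the second shCon library the rise of S100A11 was 0.32 and no longer called (adjusted p = 0.145, with a range over the alternatives from 7.28e-08 to 0.145). ANXA1 (chromosome 9, 73151865 to 73170393) was at 486 and 483 CPM in shCon and at 660 and 734 CPM in shUBXN1. ANXA1 thus changed by 0.53 on the log2 scale (standard error 0.0816, adjusted p = 7.74e-05, edgeR), a 1.44-fold rise that kept its call in all 14 alternatives.

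ANXA3 showed the largest rise among the members tested, from the lowest level of the 4 annexins. It lies on chromosome 4 from 78551747 to 78610451. ANXA3 was at 11.3 and 10.5 CPM in shCon and at 28.2 and 29.2 CPM in shUBXN1, with both knockdown libraries far above both controls. The rise was 2.63-fold, or 1.40 on the log2 scale (standard error 0.107, adjusted p = 8.55e-08, edgeR). It kept its call in all 14 alternatives, between 1.33 and 1.48.

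ANXA2, the partner of S100A10, had the highest counts of the members, and its groups overlapped. It lies on chromosome 15 from 60347134 to 60402883. ANXA2 was at 2775 and 2821 CPM in shCon and at 2657 and 2896 CPM in shUBXN1, the knockdown libraries lying on either side of the controls. Its log2 fold change was -0.01 (adjusted p = 0.931, edgeR), with a 95% interval of the fold from 0.866 to 1.14. Its sign depended on the scaling, at 0.07 with total count scaling. Reads could be divided with its processed pseudogenes, and the deposited counts of ANXA2 were not whole in 3 of the 4 libraries.

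S100A10, also called p11, has lost the ability to bind calcium and holds ANXA2 at the membrane. S100A10 (chromosome 1, 151982915 to 151993859) was at 1357 and 1354 CPM in shCon and at 1100 and 1296 CPM in shUBXN1. Both knockdown libraries lay below both controls, with the first much lower than the second. This amounts to a log2 fold change of -0.18 (95% interval of the fold 0.770 to 1.02, adjusted p = 0.12, edgeR). It was called without the second shUBXN1 library (-0.31, adjusted p = 2.41e-05), with DESeq2 (-0.18, adjusted p = 0.046) and with no filter on low counts (-0.18, adjusted p = 0.0248), and was -0.07 without the first shUBXN1 library, and the adjusted p over the alternatives ran from 2.41e-05 to 0.448.

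S100A6 and ANXA5 did not pass the test either. S100A6, or calcyclin, lies on chromosome 1 from 153534599 to 153536244, and had 776 and 800.2 CPM in shCon and 750.0 and 758 CPM in shUBXN1. Its log2 fold change of -0.06 (95% interval of the fold 0.852 to 1.08, adjusted p = 0.522, edgeR) turned to 0.02 with total count scaling, and an antisense gene covers 3.81% of its exon bases. ANXA5, whose protein binds phosphatidylserine and is used as a probe of dying cells, lies on chromosome 4 from 121667946 to 121696995. ANXA5 was at 427 and 432 CPM in shCon and at 448 and 500.0 CPM in shUBXN1, above the controls in both libraries. For ANXA5 the log2 fold change was 0.14 (95% interval of the fold 0.980 to 1.24, adjusted p = 0.146, edgeR). It was called with total count scaling (0.23, adjusted p = 0.00544), with limma on log2(TPM + 1) (0.20, adjusted p = 0.00841) and without the first shUBXN1 library (0.22, adjusted p = 0.00165), with a range over the alternatives from 0.00165 to 0.56.

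S100A14 was close to the limit of detection. It lies on chromosome 1 from 153614255 to 153616986 and had 8 and 5 counts in shCon and 6 and 17 in shUBXN1, so the groups overlapped. It did not pass the filter on low counts, so a difference between the groups was not tested in the main fit.

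Because S100 proteins and annexins act together, the ratio of each S100 gene to its annexin partner was taken within each library, which removes library scaling. The ratio of S100A10 to ANXA2, in counts per length, was 1.56 and 1.53 in shCon and 1.32 and 1.43 in shUBXN1. That of S100A4 to ANXA2 was 1.63 and 1.65 in shCon and 1.37 and 1.33 in shUBXN1, or 82.4% of the control ratio. Both ratios were lower in the 2 knockdown libraries than in the 2 controls. S100A11 to ANXA2 moved the other way, from 0.715 and 0.709 to 0.886 and 0.918, a 1.27-fold higher ratio. S100A11 to ANXA1, which both rose, was 4.599 and 4.66 in shCon and 4.01 and 4.07 in shUBXN1. The ratio of S100A6 to ANXA2 overlapped between groups, at 0.816 and 0.828 against 0.824 and 0.764. With 2 libraries against 2, the exact two-sided permutation test cannot go below p = 0.333, which the first 4 ratios reached, so these differences are given as values.

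**Figure D2:**
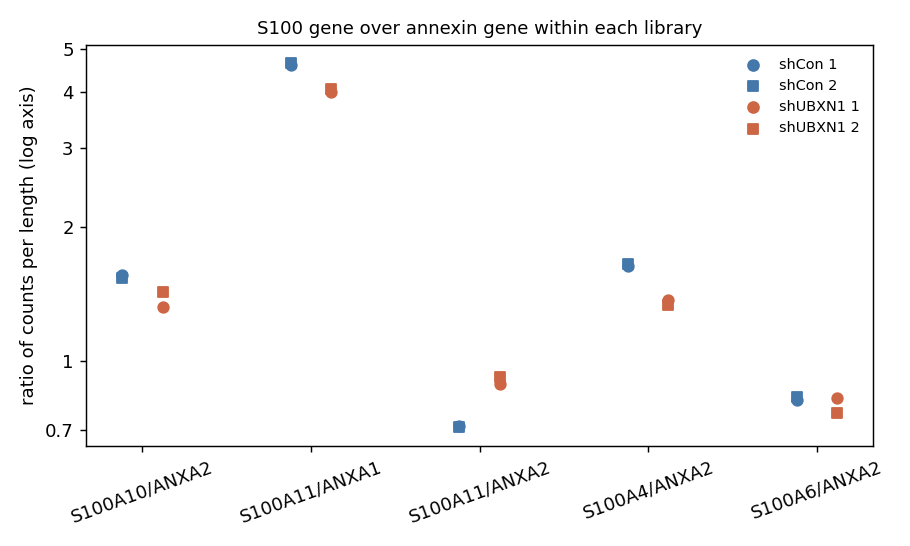
Ratio of counts per length (log axis) of an S100 gene to an annexin gene within each library, for 5 pairs known to bind, with shCon in blue and shUBXN1 in orange. The shUBXN1 libraries lie below shCon for S100A10/ANXA2, S100A11/ANXA1 and S100A4/ANXA2, above for S100A11/ANXA2, and overlap for S100A6/ANXA2.

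The summed level of the 6 S100 members was 14070 ± 98.6 TPM (SD, n = 2) in shCon and 13266 ± 185 in shUBXN1. That of the 4 annexin members was 3841 ± 46.5 TPM (SD, n = 2) in shCon and 4260 ± 51.9 in shUBXN1. The sums did not overlap between groups, with the S100 members lower and the annexin members higher (exact permutation p = 0.333 for each, the smallest possible). Over all 20 listed S100 genes the sum was 14786 ± 92.45 TPM (SD, n = 2) in shCon and 14228 ± 154 in shUBXN1. Over all 13 listed annexin genes it was 4376.5 ± 54.6 and 4597.6 ± 56.7. These directions hold for TPM, and sums in TMM-scaled CPM were not taken. ANXA2 went from 2859 to 2954 TPM within the annexin sum, but its groups overlapped in TMM-scaled CPM. Within the S100 sum, S100A4, S100A10 and S100P were lower, whereas S100A11 was higher (2036 TPM in shCon, 2665 in shUBXN1). Within the pool of all 20 listed S100 genes, S100A4 went from 31.7% ± 0.193 (SD, n = 2) to 28.1% ± 0.622 and S100A11 from 13.8% ± 0.134 to 18.7% ± 0.409. Within the pool of 13 annexin genes, ANXA2 made up 65.3% ± 0.189 (SD, n = 2) in shCon and 64.3% ± 0.266 in shUBXN1, and ANXA1 10.1% ± 0.125 and 14.3% ± 0.133.

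The remaining genes of both families were read from the same fit. Of 23 further S100 and annexin genes, 15 were tested, of which 5 were higher and 8 lower at an adjusted p under 0.05 (86.7% called, against 56.2% of all genes). Their log2 fold changes had a median of -0.33, and a median size of 0.84, and in 14 of the 15 the groups did not overlap, against 78.0% of all genes. ANXA6 and ANXA8 would not have passed the filter on low counts without the shUBXN1 libraries, where they were high, nor S100A5 without shCon. The near-identical ANXA8 and ANXA8L1 count here as separate genes. These figures were not taken without such genes, so the comparison with all genes is given as values only.

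Among the S100 genes, S100A2 rose from 13.1 and 14.1 CPM in shCon to 76.5 and 78.5 CPM in shUBXN1. The rise of S100A2 was 5.70-fold, 2.51 on the log2 scale (standard error 0.0872, adjusted p = 5.89e-11, edgeR), with all knockdown values far above the controls. S100A13, known for its part in the release of FGF1, rose 1.62-fold, from 32.3 and 37.2 CPM to 56.1 and 56.4 CPM. The gene ENSG00000271853 shares 24.2% of the exon bases of S100A13 on the same strand and S100A1 covers 10.6% on the other, so this value is uncertain. S100A16 fell from 116 and 113 CPM to 68.2 and 78.3 CPM (log2 fold change -0.64), and S100A3 from 118 and 122 CPM to 88.8 and 88.9 CPM (-0.43). S100A1 (-0.16, 47.5 to 68.0 counts) and S100A5 (-1.26, 5 to 17 counts) were not called. Genes on the other strand, S100A13 among them, cover 18.3% of the exon bases of S100A1, so its value is uncertain too.

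S100A7A, S100A8, S100A12, S100B and S100G had 0 counts in every library, which allows up to 3 counts, or 0.112 to 0.128 CPM, in each. S100A7, S100A9 and S100Z had at most 4 counts in any library. These limits cover counting error only.

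**Figure D3:**
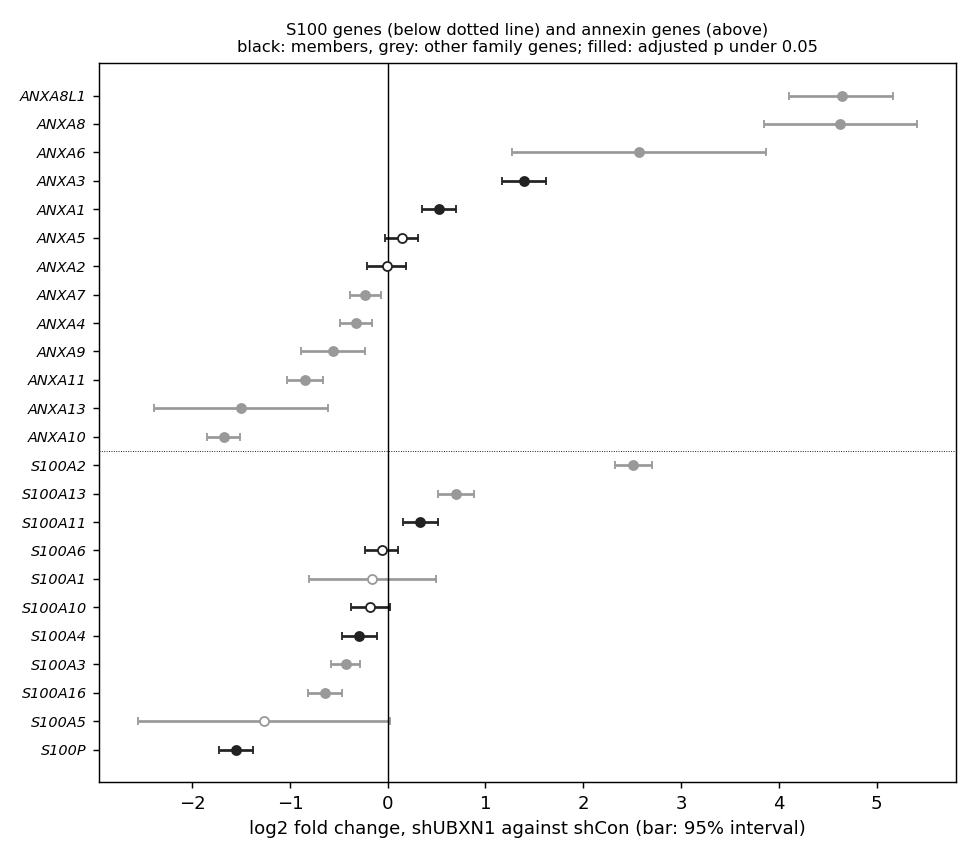
Log2 fold changes (shUBXN1 against shCon) with 95% intervals for the 24 tested genes of both families, S100 genes below the dotted line and annexins above, members in black, other family genes in grey, and filled symbols for an adjusted p under 0.05. Members other than S100P and ANXA3 lie between -0.29 (S100A4) and 0.53 (ANXA1), with S100A4, S100A11 and ANXA1 filled. ANXA8, ANXA8L1, ANXA6 and S100A2 lie far to the right and ANXA10, ANXA13 and S100P to the left.

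Of the S100 genes listed, 16 lie on chromosome 1, 5 of them members. From S100A9 to S100A1, 14 of them fill 274 kb, with S100A10 and S100A11 outside this stretch. Neighbours moved in different directions. S100A4 and S100A3 fell while S100A2, the next gene in order, rose, and beyond it S100A16 fell and S100A13 rose. S100A6, at the other side of S100A5 and S100A4, was not called.

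**Figure D4:**
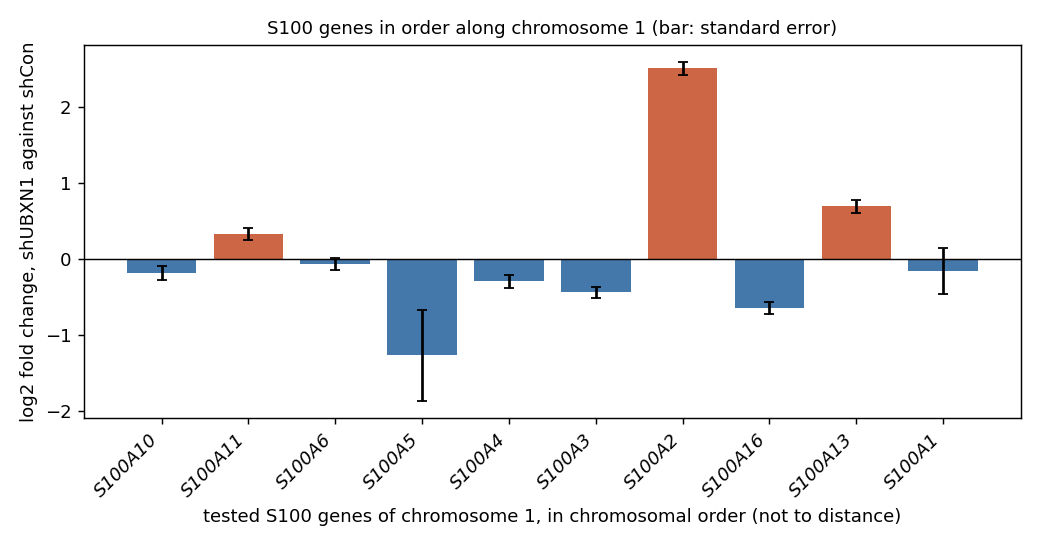
Log2 fold change (shUBXN1 against shCon, bars with standard errors) of the 10 tested S100 genes of chromosome 1 in chromosomal order, not drawn to distance. Rises (orange, up to 2.51 for S100A2) and falls (blue) are interspersed along the order.

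Among the annexins, the near-identical ANXA8 and ANXA8L1, which can share reads, were counted together. Their sum was 16 and 23 counts in shCon and 487 and 459.5 in shUBXN1, or 0.789 ± 0.268 CPM (SD, n = 2) against 19.6 ± 0.0375, a ratio of 24.9. Fitted singly, ANXA8 had a log2 fold change of 4.63 and ANXA8L1 of 4.65, with adjusted p = 1.04e-07 and 2.64e-09 (edgeR). Other genes on the same strand share 12.4% of the exon bases of ANXA8L1, so its value is uncertain. ANXA6 had 2 and 8 counts in shCon and 31 and 28 in shUBXN1, with a log2 fold change of 2.57 (95% interval 1.27 to 3.87, adjusted p = 0.00236, edgeR).

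ANXA10 showed the largest fall among the annexins tested, from 167 and 165 CPM in shCon to 49.2 and 54.9 CPM in shUBXN1. ANXA10 changed by -1.68 on the log2 scale (standard error 0.0789, adjusted p = 9.36e-10, edgeR), which left 31.3% of the control level. ANXA11, which ties RNA granules to lysosomes, fell 1.79-fold, from 147 and 156 CPM to 77.3 and 91.7 CPM. ANXA13 (50 and 39 counts against 16 and 14) and ANXA9 also fell, with log2 fold changes of -1.50 and -0.56. ANXA4 fell 1.25-fold and ANXA7 1.17-fold. Without the second shCon library fewer of the other family genes were called lower. With at least 10 counts in every library 3 were called higher in place of 5, as ANXA6 and ANXA8 were then not tested.

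The binding partners of these proteins were followed in a list of 21 genes, of which 16 were tested, 5 were higher and 6 lower (68.8% called, against 56.2% of all genes). The median log2 fold change was 0.05. With total count scaling 8 were called higher. The tetramer of S100A10 and ANXA2 binds plasminogen and its tissue activator at the cell surface. PLAT, encoding tissue plasminogen activator, rose from 8.02 and 8.64 CPM in shCon to 50.1 and 53.5 CPM in shUBXN1 (log2 fold change 2.64, standard error 0.101, adjusted p = 1.50e-10, edgeR). PLAU, encoding urokinase, rose from 28.4 and 29.0 CPM to 80.2 and 85.3 CPM (1.53, standard error 0.0791, adjusted p = 2.19e-09, edgeR), though an antisense gene covers 31.0% of its exon bases. The urokinase receptor gene PLAUR rose by less, with a log2 fold change of 0.58. The substrate gene PLG had 0 counts in both shCon libraries and at most 0.242 CPM in shUBXN1.

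Of the receptors, 1 rose strongly and 1 fell. AGER, encoding RAGE, which S100P and other S100 proteins bind, rose from 3.85 and 5.28 CPM to 14.2 and 11.7 CPM (log2 fold change 1.51, adjusted p = 6.87e-06, edgeR). TLR4, a receptor of the S100A8 and S100A9 dimer, fell from 18.4 and 16.6 CPM to 6.73 and 8.05 CPM (-1.24, adjusted p = 3.29e-06, edgeR). FPR1 and FPR2, the formyl peptide receptors of ANXA1, had 0 counts in every library. Among intracellular partners, DYSF, a membrane repair protein, had a log2 fold change of 1.07 at 1.15 to 3.55 CPM, and EZR (ezrin, -0.51), CACYBP (-0.41), HLTF (-0.48), PDCD6 (-0.57) and SRI (-0.36) fell. HLTF shares 29.8% of its exon bases with genes on the other strand, CACYBP 18.4%, and PDCD6 shares 13.6% with genes on its own strand, so these values are uncertain. MYH9, the myosin heavy chain that S100A4 binds, was at 892 to 1028 CPM with overlapping groups and a log2 fold change of 0.10, and AHNAK, IQGAP1, STK38 and SUGT1 were not called either.

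**Figure D5:**
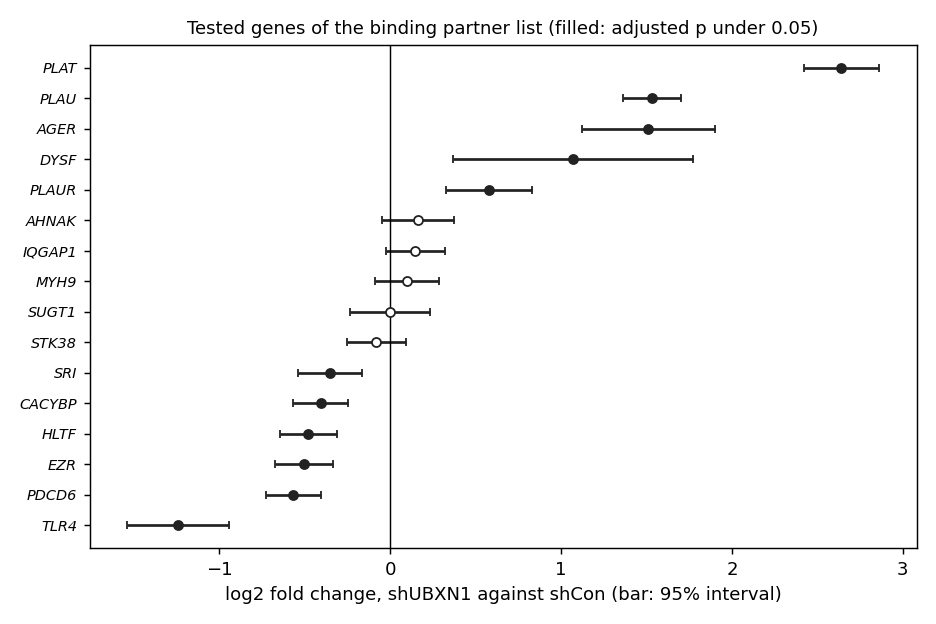
Log2 fold changes (shUBXN1 against shCon) with 95% intervals for the 16 tested genes of the binding partner list, filled where the adjusted p was under 0.05. PLAT, PLAU and AGER lie above 1.5 and TLR4 below -1, with 5 open symbols near 0.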

How the data were processed

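By the study's methods, RNA from MHCC97H cells was sequenced in paired ends and aligned with Hisat2. The submitters' processing notes name HISAT2 2.0.4 and StringTie 1.3.0, and list the build GRCh37, whereas the methods name GRCh38. The authors deposited expected counts per gene (up to 2 decimals, not normalized) with a gene length for 61541 Ensembl gene IDs. The counting tool, annotation release and strand setting are not given in the sources used here, so overlapping genes and near-identical copies are uncertain. Of the IDs, 99.7% matched a symbol of GENCODE release 44, and positions below are from that annotation on GRCh38.

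Counts were rounded, filtered with filterByExpr, scaled with TMM and tested with the quasi-likelihood test of edgeR 4.0.16 (R 4.3.3) with Benjamini-Hochberg adjustment over the 16863 genes tested. The test was checked on simulated counts, with a common dispersion for all genes and far fewer genes changed than were called here. That check therefore does not show how the test performs on these data. The standard error was the log2 fold change over the square root of F, and 95% intervals used its degrees of freedom. TPM was computed from deposited counts and lengths. DESeq2 1.42.0, limma 3.58.1 and the other alternatives are given in the closing section. The study's own test was limma.

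The members and the lists were chosen with earlier results of these data known. Genes named are the 10 members, the other family genes, and list genes past an adjusted p of 0.05 with a log2 fold change of at least 1 in size. Other names were chosen after their values were seen.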

Additional observations from a re-analysis of the deposited data

How the results depend on the processing

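S100P, ANXA1, ANXA3 and UBXN1 kept their direction and call in all 14 alternatives. At a fold change of 2, 1 member was called higher and 1 lower in each, also at 1.5. Members called higher numbered 2 to 4 and lower 1 to 3 with a library left out. The log2 fold change of S100A6 turned to 0.023 with total count scaling. That of ANXA2 was 0.073 with total count scaling, 0.047 with limma on log2(TPM + 1), 0.017 with at least 10 counts in every library, and -0.088 to 0.047 with a library left out. The log2 ratio of S100A6 to ANXA2 ran from -0.11 to 0.0037 with a library left out. Ratios of counts give the same differences as ratios of counts per length by construction, since each gene has a fixed length. Other family genes called higher numbered 3 with at least 10 counts in every library, and those called lower 5 to 8 with a library left out. Of the binding partners, 8 were called higher with total count scaling. Other EF-hand genes called lower numbered 4 to 11 with a library left out, and total count scaling moved them to 7 higher and 6 lower. With at least 10 counts in every library fewer genes were tested, 14974 against 16863, and ANXA6 and ANXA8 were among those left out. The cause of the other shifts was not tested.

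The labels give both groups replicate numbers 1 and 2, but nothing says that a number marks a shared culture, and deviations of same-numbered libraries correlated with r = 0.133 across 11867 genes, which are not independent. With a replicate block, 3 members were called higher and 2 lower, as without it, and S100A4 was at -0.29. Over all genes the block called 5000 higher and 5023 lower, against 4727 and 4751 without it. Correction of the counts within a library for GC content or for gene length, both chosen after seeing the data, changed no member's call. With 2 libraries per group the spread rested on 2 residual degrees of freedom and on sharing across genes.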

Other observations

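Calcium-binding EF-hand genes outside the S100 family were followed for comparison. Of 24 listed, 23 were tested, of which 5 were higher and 9 lower in shUBXN1 at an adjusted p under 0.05 (edgeR), or 60.9% against 56.2% of all genes. None of the 23 reached a fold change of 2, with log2 fold changes from -0.83 to 0.83. The extremes, named after their values were seen, were NUCB1, from 187 and 194 CPM in shCon to 325 and 351 CPM in shUBXN1, and CETN2, a centrosomal protein gene, from 82.9 and 84.3 CPM to 45.7 and 48.5 CPM. PDCD6 and SRI stand in both this list and that of binding partners.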
